A study of Mus musculus with 2 samples.

Results

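The Ebf (early B cell factor) family of the mouse comprises 4 transcription factor genes, Ebf1, Ebf2, Ebf3 and Ebf4. They were taken by name as 4 of the 31053 gene rows of a single-nucleus RNA-seq library from the paraventricular nucleus of the hypothalamus (PVH). Earlier results on these nuclei were known when the family was chosen, so the levels below are descriptions and carry no test. The nuclei came from 17 mice at 4 weeks of age, pooled by genotype, and all mice carried Sim1-Cre and Sun1-GFP. Cre expressed from Sim1 labels the nuclear envelope of Sim1-lineage cells with GFP, and GFP-positive nuclei were enriched by flow sorting. Of these mice, 7 had no alteration of Otp, 4 were Otp fl/+, in which 1 copy of the developmental transcription factor gene Otp can be deleted by Cre, and 6 were Otp Q153R/+, which carry 1 copy with an amino acid substitution. The library was multiplexed with 3 hashtag antibodies whose rows are named Ctrl, KD and Q153R. KD was matched to the floxed mice by elimination only, so the groups are called the pools labelled Ctrl, KD and Q153R. Each genotype was 1 pool in 1 library, which gives no replicate of a genotype. No p-value was computed. Every interval given is a 95% interval, exact or Mantel-Haenszel except where stated, that covers counting error only. The unique molecular identifiers (UMIs) of 1 nucleus are not independent of each other, so these intervals are too narrow for the nuclei, and narrower still for the mice.

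Ebf proteins bind DNA as dimers through a zinc-containing domain, the zinc knuckle, and carry an IPT domain and a helix-loop-helix dimerisation domain. Ebf1 is known as a master regulator of B cell development, Ebf2 as a regulator of brown fat and of migrating neurons, and Ebf3 as a factor of neuronal differentiation whose loss of function causes a human neurodevelopmental syndrome. Ebf4 is the least studied member. In the brain the family is best known from developing neurons that are leaving the cell cycle and migrating. Otp and Sim1 are transcription factors needed to form PVH neurons, and the series was made to study regulators of Mc4r, the melanocortin-4 receptor gene.

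In GRCm38 (GENCODE vM21 gene models) Ebf1 lies at chr11:44617317-45008091 on the plus strand, Ebf2 at chr14:67233292-67430918 on the plus strand, Ebf3 at chr7:137193673-137314445 on the minus strand and Ebf4 at chr2:130295169-130370481 on the plus strand. Each of the 4 coding sequences used is split over 16 coding exons, and they are 1773, 1725, 1653 and 1797 bases long. They are the longest among the transcripts that the annotation marks as principal for each gene. Aligned in pairs, they are between 70.7% (Ebf2 and Ebf4) and 79.6% (Ebf1 and Ebf3) identical. The longest exact run shared by any pair is 27 bases, between Ebf3 and Ebf4, inside the stretch that encodes the zinc knuckle. That stretch is printed because it holds this longest run and shows how far a short read could be shared between those 2 genes. The longest runs of the other pairs, 15 to 24 bases, lie elsewhere in the coding sequences. Capitals mark bases that differ from Ebf3: 4 in Ebf1, 7 in Ebf2 and 5 in Ebf4 of 42.
Ebf1: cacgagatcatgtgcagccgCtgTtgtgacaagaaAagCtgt
Ebf2: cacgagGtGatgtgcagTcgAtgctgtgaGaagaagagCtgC
Ebf3: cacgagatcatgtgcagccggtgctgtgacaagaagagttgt
Ebf4: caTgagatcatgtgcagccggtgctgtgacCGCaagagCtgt

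RefSeq promoter windows were found for 3 of the 4 members (GRCm38.p6), and those of Ebf1 and Ebf3 are shown because these members were detected mostly in separate neurons. Both are printed 5′ to 3′ on the gene's strand and end at the base before the transcription start, at chr11:44617850-44618099 for the first of the Ebf1 starts and chr7:137314446-137314695 for Ebf3. Capitals mark a match to CCCNNGGG, the core of the palindrome that Ebf proteins bind, searched on both strands (the palindrome reads the same on each).
Ebf1: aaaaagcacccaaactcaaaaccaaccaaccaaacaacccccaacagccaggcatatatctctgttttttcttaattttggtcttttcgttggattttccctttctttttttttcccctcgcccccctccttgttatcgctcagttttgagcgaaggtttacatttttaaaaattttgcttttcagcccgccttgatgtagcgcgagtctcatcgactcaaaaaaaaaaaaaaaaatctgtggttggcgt
Ebf3: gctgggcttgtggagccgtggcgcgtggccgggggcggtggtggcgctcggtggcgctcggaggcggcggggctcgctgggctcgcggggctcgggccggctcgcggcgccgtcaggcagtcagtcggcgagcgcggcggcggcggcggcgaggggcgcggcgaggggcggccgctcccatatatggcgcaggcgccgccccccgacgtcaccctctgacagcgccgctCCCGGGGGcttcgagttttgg
The Ebf3 window was 80% G and C and held 1 match to the core, starting at base 230, whereas the Ebf1 window was 40% G and C and held none. Among 32817 promoter windows of 300 bases, 13.7% held the core and 0.905% the full palindrome TCCCNNGGGA, so a core match is common. Of the 25 other genes named below for likeness or high ratios that had a window, 5 held a core match (Vegfc, 4930447C04Rik, Bcl11b, Cbfa2t3 and Esr2) and 0 the full palindrome. These matches describe letters in a window and not bound sites.

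After filters and removal of likely doublets, 4450 nuclei with 23183780 UMIs were kept, and 4188 of them, with 22569318 UMIs and a median of 5090.5 each, fell in 21 neuron clusters. Of these clusters 20 expressed Sim1 (3768 nuclei, 353 to 1147 CPM of Sim1, CPM being UMIs of a gene per 1000000 UMIs of all genes) and 1 was GABAergic (420 nuclei, 12.05 CPM of Sim1). A cluster of 74 astrocyte-like nuclei, with 4 astrocyte markers among its 10 leading genes, had 0 Sim1 UMIs and a median of 1765.5 UMIs. It served as the background for detection. The members were left out when the nuclei were clustered, as were Bnc2, Aox3, Satb1 and the genes of the lists below, but the antisense transcripts that overlap the members were not. Neurons were also put into 8 overlapping classes by their UMIs of Bnc2, Aox3 or Satb1, Crh, Trh, Sst, Oxt, Avp, or Gad1, Gad2 and Slc32a1 together (called GABA). In all, 1378 neurons were in a class, 68 of them in more than 1, and 2810 in none.

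Ebf1 was present as 5336 UMIs in 824 of the 4188 neurons, a level of 236 CPM (230 to 243). Of its nuclei 605 held 2 or more UMIs, and the highest held 58. Ebf2 was the most restricted member, with 1030 UMIs in 228 neurons, 45.6 CPM (42.9 to 48.5) and at most 25 in a nucleus. Ebf3 had 2163 UMIs in 783 neurons, 95.8 CPM (91.8 to 99.96) and at most 20 in a nucleus. For these 3 members a few nuclei held much of the signal: the top 10% of positive nuclei held 35.1%, 36.8% and 30.1% of the UMIs. Ebf4 was spread thinly, with 564 UMIs in 472 neurons, 25.0 CPM (23.0 to 27.1), a median of 1 UMI in a positive nucleus and at most 5. Levels are compared between nuclei for each gene and not between genes, because intronic counting over genes of unequal length would enter such a comparison.

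Detection was compared with the astrocyte-like nuclei because free RNA in droplets also gives UMIs. With every neuron thinned to 2007 UMIs and the 284 shallower neurons left out, 14.9% of 3904 neurons held Ebf1 (13.8 to 16.1), 3.84% Ebf2 (3.26 to 4.49), 12.5% Ebf3 (11.5 to 13.6) and 4.02% Ebf4 (3.43 to 4.69). Unthinned, the shares were 19.7%, 5.44%, 18.7% and 11.3%. Of the 74 astrocyte-like nuclei, 0 held Ebf1 and 0 held Ebf3, each of which allows a share of up to 4.05% by the limit of 3 counts and 4.86% by the exact interval, while 2 held Ebf2 and 3 held Ebf4. Thinned to the same depth, 28 astrocyte-like nuclei were left, of which 0 held Ebf1, Ebf2 or Ebf3 and 2 held Ebf4. Ebf1 and Ebf3 thus stood above the share that the 74 unthinned astrocyte-like nuclei allow. Those nuclei were shallower than the thinned neurons, at a median of 1765.5 UMIs. The 28 at equal depth are too few to set a close limit. Ebf2 is read as above background only in the clusters where it was high. For Ebf4, 2 of 28 astrocyte-like nuclei are too few to place its share of neurons above or below background. Its overall share is therefore not read as above background, although its CPM differed between clusters by more than counting error.

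In the Bnc2 class (46 nuclei with 2 or more UMIs of the zinc finger gene Bnc2), Ebf1 and Ebf2 were both high. Ebf1 stood at 820.5 CPM against 227 in the other neurons, a ratio of 3.61 (3.19 to 4.07), and 35 of the 46 nuclei held it. Ebf2 stood at 497 CPM against 38.5, a ratio of 12.9 (10.9 to 15.2), with 32 of 46 nuclei positive. After thinning, 58.7% (43.2 to 73.0) held Ebf1 and 50% (34.9 to 65.1) Ebf2. Ebf3 was at 45.7 CPM, 0.473 times the other neurons (0.270 to 0.771), and Ebf4 at 17.2 CPM from 6 UMIs, a ratio of 0.683 whose interval of 0.250 to 1.496 includes 1. Past 1.5-fold in either direction were 3 of 4 members and 33.6% of the 9843 genes with at least 200 UMIs. By ratio, Ebf2 ranked 2 and Ebf1 30 of those genes. Of the 46 nuclei, 38 lay in cluster 9, with Ebf1 at 972 CPM (862 to 1092) and Ebf2 at 591 (506 to 686). The 92 nuclei of cluster 9 in no class held Ebf1 at 1396 CPM (1306 to 1491) and Ebf2 at 718 (654 to 786). Their Ebf1 was thus higher, and the Ebf2 intervals overlap. High Ebf1 and Ebf2 were therefore not particular to the nuclei of the class.

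**Figure D1:**
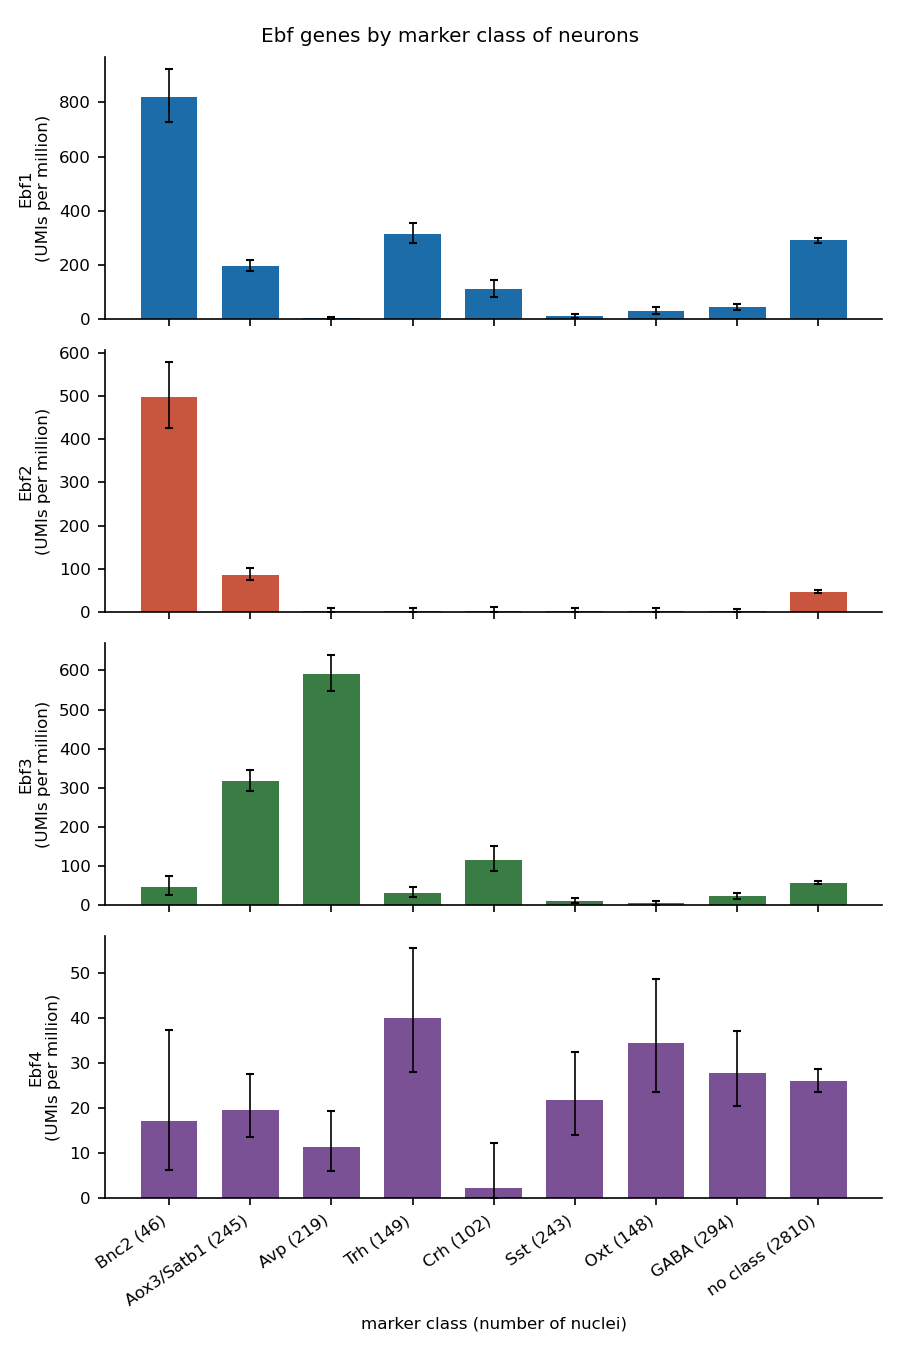
Level of each Ebf gene (CPM, separate vertical axis from 0 for each gene) in the 8 marker classes and in neurons of no class; bars are summed levels and lines 95% Poisson intervals. Ebf2 is tallest in the Bnc2 class at 497 CPM and Ebf3 in the Avp class at 592 CPM.

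Ebf3 was highest in the Avp class, the 219 nuclei rich in vasopressin transcripts. There it reached 592 CPM (549 to 638) against 69.2 in the other neurons, a ratio of 8.56 (7.81 to 9.38). It was found in 170 of the 219 nuclei, and in 61.0% (53.8 to 67.9) at equal depth. The other members were all low in this class: 3 UMIs of Ebf1 (2.61 CPM), 4 of Ebf2 (3.48 CPM) and 13 of Ebf4 (11.3 CPM, a ratio of 0.439, 0.233 to 0.758). All 4 members were past 1.5-fold, against 26.9% of genes. Ebf3 ranked 7 among the 9843 genes. In the Oxt class (148 nuclei rich in oxytocin transcripts), the other magnocellular hormone, Ebf3 had 4 UMIs (4.31 CPM, 1.17 to 11.02) and Ebf1 30.1 CPM. Ebf4 there was at 34.4 CPM (ratio 1.40, 0.949 to 2.002). Past 1.5-fold were 3 of 4 members and 25.0% of genes. The Ebf3 intervals of the Avp and Oxt classes do not meet.

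The Aox3/Satb1 class (245 nuclei) held Ebf3 at 318 CPM, a ratio of 4.08 (3.69 to 4.50), and Ebf2 at 86.9 CPM, a ratio of 2.05 (1.71 to 2.45). Ebf1 was at 198 CPM, a ratio of 0.825 (0.736 to 0.922), and Ebf4 at 19.7 CPM (0.773, 0.527 to 1.10). Of the 4 members 2 were past 1.5-fold, against 12.9% of genes, and Ebf3 ranked 11 by ratio. With the UMI minimum of the class lowered to 1, the Ebf1 ratio was 1.01. The class joined different neurons. Its 71 nuclei in cluster 11 held Ebf3 at 662 CPM, in 70 of 71 nuclei, with Ebf1 at 152 CPM. Its 38 nuclei in cluster 13 summed to Ebf1 at 556, Ebf2 at 276 and Ebf3 at 297 CPM, found in 19, 15 and 28 of the nuclei. Its 48 nuclei in cluster 18 held Ebf3 at 290 CPM but Ebf1 at only 22.1 CPM. The mean over the class therefore describes none of these groups.

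The Trh class (149 nuclei with thyrotropin-releasing hormone transcripts) was also mixed. Its Ebf1 level of 316 CPM, a ratio of 1.36 (1.20 to 1.53), averaged 660 CPM in 50 nuclei of cluster 2, 217 CPM in 44 nuclei of cluster 0 and 22.2 CPM in 28 nuclei of cluster 1. Ebf3 ran the other way, at 208 CPM in the cluster 1 nuclei and with 1 and 0 UMIs in those of clusters 2 and 0. Over the whole class Ebf3 was at 32.3 CPM (0.328, 0.219 to 0.472), Ebf2 had 3 UMIs, and Ebf4 was at 40.1 CPM (1.64, 1.14 to 2.31). Past 1.5-fold were 3 of 4 members and 14.6% of genes. With a doubled UMI minimum for the class, the Ebf1 ratio was 0.889.

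In the Crh class (102 nuclei with corticotropin-releasing hormone transcripts), Ebf1 was at 111 CPM, 0.465 times the other neurons (0.346 to 0.613). Ebf3 was at 116 CPM (1.21, 0.904 to 1.59), which is not distinguishable from the other neurons, and Ebf2 and Ebf4 had 1 UMI each. Past 1.5-fold were 3 of 4 members and 50.2% of genes. The Sst class (243 nuclei with somatostatin transcripts) was nearly empty of 3 members, with 11 UMIs of Ebf1, 4 of Ebf2 and 11 of Ebf3, while Ebf4 was at 21.8 CPM (0.865, 0.549 to 1.30). There too 3 of 4 members were past 1.5-fold, against 21.7% of genes. The GABA class (294 nuclei) held Ebf1 at 43.9 CPM, Ebf2 at 2.96 and Ebf3 at 22.5, with ratios of 0.174, 0.0604 and 0.221, and Ebf4 at 27.9 CPM (1.13, 0.816 to 1.52). Its 3 members past 1.5-fold stand beside 9.34% of genes. This class was mixed too: its 190 nuclei in the GABAergic cluster 15 held 0 Ebf3 UMIs and Ebf1 at 43.3 CPM. Its 30 nuclei in cluster 5 (led by Crh) held 26 of the 38 Ebf3 UMIs of the class, and Ebf1 at 136 CPM. Without removal of doublets, the ratios of 3.61 and 12.9 for Ebf1 and Ebf2 in the Bnc2 class became 2.12 and 7.74, and those of 4.08 and 8.56 for Ebf3 in the Aox3/Satb1 and Avp classes became 2.70 and 5.245. Most Ebf signal lay outside the classes: neurons of no class held 80.1% of Ebf1 UMIs, 67.3% of Ebf2, 38.7% of Ebf3 and 67.7% of Ebf4.

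Across the 21 neuron clusters, Ebf1 had 4 peaks: cluster 9 (led by Bnc2) at 1227 CPM (1158 to 1298), cluster 17 (4930509J09Rik and Dkk2) at 950 (893 to 1009), cluster 2 (Crhr2 and Sim2) at 930 (878 to 983) and cluster 13 (6530403H02Rik and Pmch) at 655 (592 to 723). The intervals of clusters 17 and 2 overlap, and those of their neighbours in this order do not. Next came cluster 8 (Tcf7l2) at 298, cluster 4 (Lgr5) at 250 and cluster 7 at 202 CPM. At the other end were cluster 20 (Avp) with 2 UMIs, cluster 23 with 1 and cluster 3 (Sst) with 3. At equal depth 72.9% of nuclei of cluster 9 held Ebf1, against 0.552% in cluster 20.

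Ebf2 was concentrated in cluster 9, which held 663 of its 1030 UMIs (64.4%) at 680 CPM (629 to 734). Clusters 13 and 17 followed at 155 (125 to 190) and 125 CPM (105 to 148), whose intervals overlap, and cluster 11 at 59.6 (41.96 to 82.1). In 5 neuron clusters (0, 3, 6, 10 and 23) no Ebf2 UMI was found. Its 32 UMIs in cluster 8 and 29 in cluster 15 rested on few nuclei, since 1 nucleus held 22 of them in each.

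Ebf3 was highest in cluster 11 (led by Aox3) at 647 CPM (586 to 714) and cluster 20 (Avp) at 613 (568 to 661), whose intervals overlap. Cluster 13 at 241 (203 to 283) and cluster 18 (Reln) at 240 (212 to 270) did not differ either, and were followed by cluster 1 at 163 and cluster 5 (Crh) at 144 CPM. Ebf3 was at 0 UMIs in clusters 0, 4 and 10 and had 1 UMI each in clusters 16, 17 and 23 and 2 in cluster 2. Clusters 2 and 17, among the strongest for Ebf1, thus lay among the lowest for Ebf3, and cluster 20 showed the reverse. Cluster 13 was high for Ebf1, Ebf2 and Ebf3 as summed levels. Of its 101 thinned nuclei, 4 held Ebf1 with Ebf2, 12 Ebf1 with Ebf3 and 6 Ebf2 with Ebf3.

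Ebf4 ranged from 4.05 CPM (1.32 to 9.45) in cluster 6 and 4.67 (2.02 to 9.20) in cluster 5 to 44.9 (35.4 to 56.1) in cluster 7 and 48.8 (34.98 to 66.1) in cluster 16. Median depths were 3823 and 3843 UMIs in clusters 6 and 5, against 5723 and 5434 in clusters 7 and 16. Clusters 3 and 1, at 3863.5 and 3995 UMIs, held Ebf4 at 20.3 and 21.2 CPM. Cluster 11, at 6075.5 UMIs, held 8.05 CPM. The part of depth in these levels was not tested. At equal depth 1 of 277 nuclei of cluster 6 and 1 of 397 of cluster 5 held Ebf4. The shares were 5.59% (8 of 143) in cluster 16 and 6.23% in cluster 7. Clusters 3 and 1 were close to these, at 5.03% and 5.82%.

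**Figure D2:**
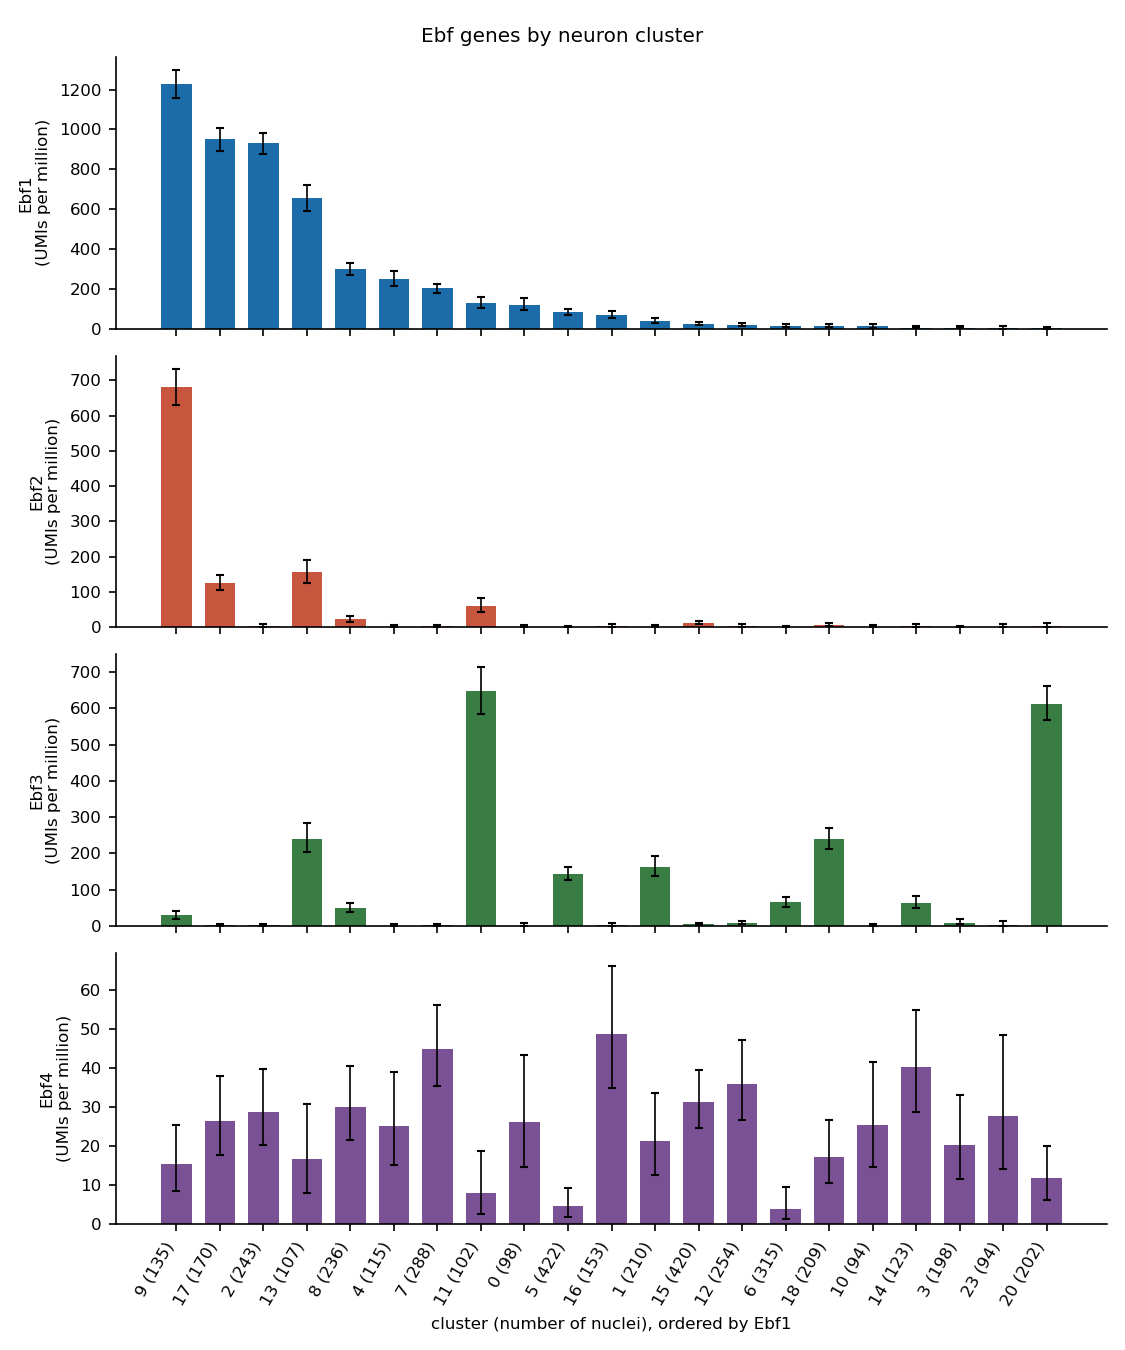
Level of each Ebf gene (CPM, separate axis from 0 for each gene) in the 21 neuron clusters, in the order of the Ebf1 level; bars are summed levels and lines 95% Poisson intervals. Ebf2 is concentrated in cluster 9 at 680 CPM, and Ebf3 peaks in clusters 11 and 20, at 647 and 613 CPM, where Ebf1 is at 129 and 1.81 CPM.

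As a description over the 21 clusters of the shared library, the Pearson correlation of log2(CPM + 5) was 0.66 for Ebf1 and Ebf2, -0.15 for Ebf1 and Ebf3, 0.24 for Ebf2 and Ebf3 and -0.65 for Ebf3 and Ebf4. It was 0.05 for Ebf1 and Ebf4 and -0.13 for Ebf2 and Ebf4. The genes closest to Ebf1 by this measure, of 9842 ranked, were Col18a1 (0.82), 4930567K20Rik (0.80), Cask (0.80), Lhfpl3 (0.79) and Adamts18 (0.79). Col18a1 encodes a basement membrane collagen and Cask a synaptic scaffold. For Ebf2 they were Vegfc (0.78), a growth factor of lymphatic vessels, Tubb2a (0.76), Mir124a-1hg (0.73), Gpr149 (0.72) and Gipc2 (0.72). For Ebf3 they were Ndfip2 (0.78), Cacng2 (0.74), an auxiliary subunit of AMPA receptors, Gm44593 (0.73), Nexmif (0.73) and Stac2 (0.73). For Ebf4 they were 4930447C04Rik (0.90), Pla2g4e (0.87), Tsga10 (0.87), Gabrg3 (0.86), a GABA-A receptor subunit, and Tbc1d32 (0.85). Most of these genes were among those the nuclei could be clustered on, and all share the 1 library.

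Ebf1 and Ebf2 were found in the same nuclei more often than the product of their shares gives. Among the 3904 thinned neurons 87 held both, against 22.4 from the product, an odds ratio of 9.09 (6.40 to 13.0). Of the neurons with Ebf2, 58.0% also held Ebf1, whereas 14.9% of those with Ebf1 held Ebf2. The odds ratio was 6.49 (4.54 to 9.27) within marker classes but 1.31 (0.829 to 2.07) within clusters, an interval that includes 1. With 2 or more unthinned UMIs of each it was 2.29 (1.41 to 3.73) within clusters. In cluster 9, 62 of 133 thinned nuclei held both (odds ratio 2.48, 1.06 to 5.86). In clusters 13 and 17 the odds ratios were 0.594 (0.127 to 2.28) and 0.893 (0.346 to 2.40). Most of the joint detection thus followed which cluster a nucleus was in.

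Ebf1 and Ebf3 went the other way, with 45 neurons holding both against 72.9 from the product, an odds ratio of 0.543 (0.385 to 0.751). Computed over all possible draws of the thinning, an added alternative, 36.3 were expected to hold both, with an odds ratio of 0.425 (0.288 to 0.601). Within clusters the odds ratio was 1.09 (0.719 to 1.65), so no avoidance in detection at equal depth was seen inside clusters. By level, Ebf1 in neurons with 2 or more Ebf3 UMIs was 0.316 times that in neurons with none. Within clusters this ratio was 0.514 (0.424 to 0.624), which is below 1. The reverse ratio, of Ebf3 with 2 or more Ebf1 UMIs, was 0.855 within clusters (0.728 to 1.01). Ebf3 and Ebf4 were together in 12 neurons (0.567, 0.284 to 1.03), and over all draws the odds ratio was 0.510 (0.257 to 0.928). Intervals over all draws treat rounded expected numbers as if they were observed, so they are approximate. The 3 other pairs had intervals that included 1 in thinned neurons, over all neurons and within clusters. With 2 or more unthinned UMIs of each, 2 of these excluded 1 within clusters: Ebf1 with Ebf4 at 0.323 (0.113 to 0.921, 6 neurons with both) and Ebf2 with Ebf3 at 2.43 (1.14 to 5.20, 22 neurons with both). By that rule Ebf1 with Ebf3 was at 0.813 (0.501 to 1.32) within clusters. By combination, 2707 thinned neurons (69.3%) held no member, 437 (11.2%) only Ebf1, 420 (10.8%) only Ebf3, 120 (3.07%) only Ebf4 and 47 (1.20%) only Ebf2. Ebf1 with Ebf2 was the commonest pair at 79 neurons (2.02%), Ebf1 with Ebf3 made 39, and 6 held Ebf1, Ebf2 and Ebf3. None of the 3904 held all 4.

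**Figure D3:**
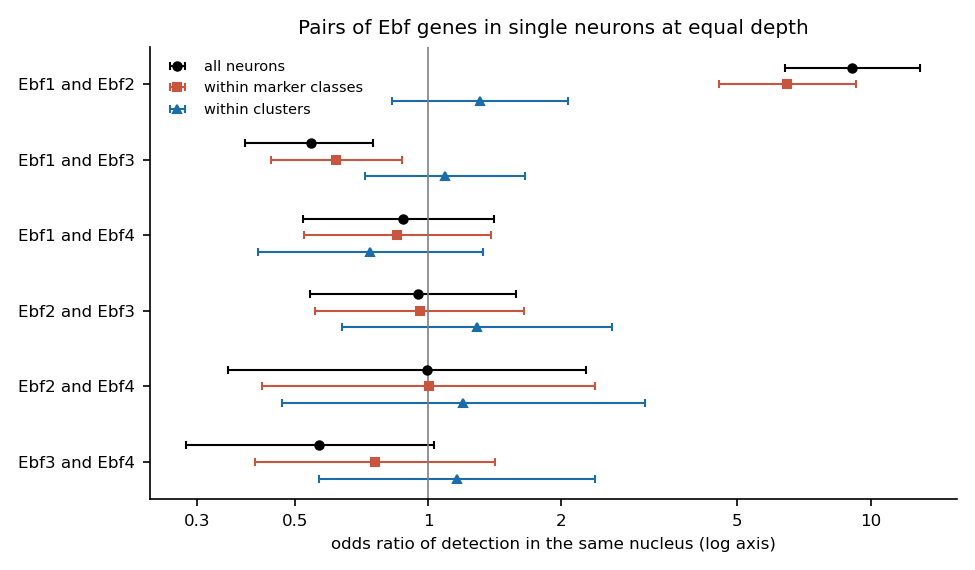
Odds ratio (log axis) that a thinned neuron with 1 member holds the other, for the 6 pairs, over all neurons, within marker classes and within clusters; points are estimates and lines 95% intervals. Ebf1 with Ebf2 stands at 9.09 over all neurons and 1.31 within clusters.

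Neurons with 2 or more UMIs of a member were next compared with neurons holding none, for all genes with at least 200 UMIs. Beside Ebf1, the highest ratios were Ebf2 (19.9, 16.9 to 23.6), Bnc2 (18.8), the noncoding gene 6530403H02Rik (10.0), Chodl (5.91), which encodes a lectin-like membrane protein, and Col18a1 (4.66). Within clusters these ratios were 2.56, 1.49, 7.49, 2.27 and 1.49, so 6530403H02Rik was the gene whose ratio moved least. The single highest nucleus held 27 of its 192 UMIs. The 605 nuclei with Ebf1 were also deeper, at a median of 6050 UMIs against 4896. So were those with Ebf2 (6997 against 5029), Ebf3 (5719.5 against 5099) and Ebf4 (7056.5 against 4955). The part of depth in the ratios was not tested.

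With Ebf2 the highest were Bnc2 (54.0, 42.5 to 69.0), Kitl (8.19), which encodes the ligand of the Kit receptor, Gm28928 (6.62), Col18a1 (6.58) and Gpr149 (6.33). Within clusters Bnc2 stood at 2.04 (1.53 to 2.72), Kitl at 5.39 (3.56 to 8.16) and Gpr149 at 3.76 (2.57 to 5.49), while Col18a1 was at 1.12 (0.870 to 1.44). Ebf1 itself was 6.08 times as high and 1.27 within clusters. With Ebf3 the highest were Avp (13.8), Bcl11b (7.08), a zinc finger factor of projection neurons, Gm44593 (6.32), Gm32828 (5.74) and Cbfa2t3 (5.50). Avp was at 0.939 (0.896 to 0.985) within clusters and Bcl11b at 2.26 (1.37 to 3.74). With Ebf4 no ratio passed 3.24: Ccdc85c (3.24), Esr2 (3.04), which encodes an oestrogen receptor, Pth2r (2.97), A830019P07Rik (2.79) and Gm10130 (2.77), each from 16 to 33 UMIs.

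Of the genes the study is about, Otp was at 66.96 CPM in neurons with an Ebf1 UMI and 83.1 in those without (ratio 0.806, 0.714 to 0.908; within clusters 1.0, 0.867 to 1.15). With Ebf3 it was at 102 against 74.0 CPM (1.39, 1.24 to 1.54; within clusters 1.10, 0.938 to 1.30). With Ebf2 the Otp ratio was 0.889 (0.728 to 1.08) but 1.37 within clusters (1.09 to 1.73), and with Ebf4 it was 1.22 (1.07 to 1.38) and 1.20 within clusters (1.05 to 1.36). Inside clusters Otp was thus higher with any UMI of Ebf2 or Ebf4 beyond the interval, and not detectably different with Ebf1 and Ebf3. With 2 or more UMIs of the member, the ratios within clusters were 1.20 (0.844 to 1.69) for Ebf2 and 1.03 (0.782 to 1.36) for Ebf4. Both intervals include 1, so the difference depended on the rule. Sim1 was 1.24 times as high with Ebf3 (1.19 to 1.30) and 0.975 within clusters (0.913 to 1.04). With Ebf1 it was at 1.0 (0.958 to 1.05) over all neurons and 1.14 within clusters (1.07 to 1.20). With Ebf2 the Sim1 ratio was 0.886 (0.819 to 0.958), within clusters 0.958 (0.866 to 1.06), and with Ebf4 both intervals included 1. Mc4r was sparse: 10, 2, 16 and 8 of its 70 UMIs lay in neurons with Ebf1, Ebf2, Ebf3 and Ebf4. The 4 ratios, from 0.393 to 1.26, all had intervals that included 1, so no relation to an Ebf gene was detectable at this depth.

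Cofactors and antagonists of Ebf proteins, 8 of 10 listed genes measured, showed 0 higher and 1 lower past 1.5-fold with Ebf1, against 8.64% of all 9677 genes tested in either direction. The lower gene was Tet2 (0.575), a DNA demethylase. With Ebf2, 3 were higher and 1 lower, against 19.3% of 9776 genes. These were Runx1t1 (2.45), a corepressor, and the zinc finger partners Zfp521 (2.23) and Zfp423 (1.72), with Tet2 at 0.552. With Ebf3, 1 was higher (Runx1t1, 1.64) and 1 lower (Zfp521, 0.284), against 9.71% of 9631. With Ebf4, 1 was higher (Zfp521, 1.80) and 1 lower (Runx1t1, 0.65), against 18.1% of 9412. The median log2 ratios of the list were -0.01, 0.05, 0.08 and -0.03, beside -0.05, -0.08, -0.03 and -0.00 over all genes. Zfp521, an antagonist of Ebf1 in blood cells, was thus high with Ebf2 and low with Ebf3.

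Of 18 neurogenic basic helix-loop-helix factors and their partners, only 5 or 6 were measured in any comparison. The shares of all genes past 1.5-fold stay those given above for each member (8.64%, 19.3%, 9.71% and 18.1% for Ebf1 to Ebf4), here and in the next lists. With Ebf1, 0 were higher and 3 lower (Nhlh2 0.443, Id4 0.560 and Tcf4 0.614; median log2 -0.70), and with Ebf2, 0 higher and 4 lower (median -0.94). With Ebf3, 1 was higher, Tcf4 at 2.18, and 0 lower (median 0.12), and with Ebf4, 0 were higher and 3 lower (median -0.71), of which Nhlh2 and Id4 rested on 2 and 4 UMIs and had intervals that included 1. Of 22 factors of other developing neurons that express Ebf genes, 5 were measured. With Ebf1, 0 were higher and 3 lower (Meis2 0.0661, Foxp2 0.0777 and Reln 0.356), and with Ebf2, 1 higher (Lhx5, 2.01) and 3 lower. With Ebf3, 2 were higher (Reln 1.84 and Foxp2 1.80) and 1 lower (Meis2 0.0957). With Ebf4, 2 were higher and 1 lower, and the intervals of Lhx5 (1.64) and Meis2 (0.601) among them included 1. Medians were -1.49, -1.09, 0.18 and 0.33 in the same order.

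Of 36 listed PVH transcription factors, 23 were measured with Ebf1 and Ebf2 and 22 with Ebf3 and Ebf4. The list was chosen with earlier results of these data known and holds class markers. Its counts are therefore descriptions and no test of enrichment. With Ebf1, 4 were higher (Bnc2, Zfhx3 2.44, Zfhx4 1.98 and Onecut2 1.74) and 8 lower, among them Esr2 (0.178) and Pou3f2 (0.389). With Ebf2, 3 were higher (Bnc2, Satb1 2.19 and Zfhx3 1.99) and 11 lower, against 19.3% of all genes in either direction. Of the 11, St18 at 0.576 had an interval that included 1 (0.209 to 1.28). With Ebf3, 4 were higher (Bcl11b, Satb1 5.08, Pou3f2 3.47 and Tshz1 1.53) and 8 lower, among them Zfhx3 (0.116) and Onecut2 (0.232). Zfhx3 and Onecut2 thus lay on opposite sides for Ebf1 and Ebf3. With Ebf4, 6 were higher and 2 lower, and the interval of Etv5 (0.574) included 1. Medians were -0.37, -0.58, -0.29 and 0.20. The known targets of Ebf proteins in other tissues were mostly below the UMI minimum: 1 of 10 B cell targets, 2 of 7 olfactory and 1 of 6 fat cell targets were measured. Of these, Foxo1 was at 0.113 with Ebf2, 0.250 with Ebf3 and 1.66 with Ebf4, and Cebpb at 0.400, 0.217 and 0.310 with Ebf1, Ebf2 and Ebf4. The olfactory targets were past 1.5-fold with 0 members.

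Markers of other cells were summed in the same nuclei. The 7 oligodendrocyte precursor markers were at 1035 CPM with Ebf1 against 451 without (2.29 times) and at 1181 against 526 with Ebf2 (2.24 times), with Sox10 and Olig1 at 0 in both sets. With Ebf2, Pdgfra, Cspg4 and Olig2 were at 0 too, and Lhfpl3, which tracked Ebf1 above, had 12007 UMIs in neurons. The 9 astrocyte markers were at 89.8 CPM with Ebf1 against 62.6 (1.43 times; Gja1 and Gfap at 0) and at 68.8 against 66.6 with Ebf2. The 7 microglial markers were between 1.05 and 1.32 times as high with the 4 members, and Tmem119 was at 0 with each. The 5 B cell markers had 2, 0, 4 and 1 UMIs. The part of these markers in the ratios was not tested.

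Antisense transcripts overlap 3 of the members in the annotation, and no source used here says whether counting used the strand. The transcript 4930438E09Rik, antisense within Ebf2, had 163 UMIs in 93 neurons, 79 of which (84.9%) also held Ebf2, and was highest in cluster 9 at 114 CPM. Gm10578, opposite Ebf3, had 77 UMIs in 70 neurons, 58 of them with Ebf3, and Gm12158, opposite Ebf1, had 52 UMIs in 49 neurons, 45 of them with Ebf1. Without strand, reads of a gene and its partner cannot be told apart, so the Ebf1, Ebf2 and Ebf3 counts are uncertain to that extent.

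The pools were compared over the Sim1-expressing clusters: 1344 nuclei labelled Ctrl, 996 labelled KD and 1345 labelled Q153R, with medians of 5250, 5729 and 4593 UMIs. Otp, the altered gene, was at 57.9 CPM (52.6 to 63.6) in Ctrl, 91.0 (83.5 to 99.0) in KD and 121 (113 to 130) in Q153R, higher in the pool labelled KD than in Ctrl. No label says which exons are floxed, so UMIs outside the deleted part may enter, and this level does not check the labels. The pools also differed in other ways: 71.2%, 83.2% and 48.2% of nuclei held 3 or more Xist UMIs and no Y-linked UMI, and tanycyte markers were at 18.9, 6.0 and 12.1 CPM. The part of these in the results was not tested, and mouse, pool and genotype cannot be told apart.

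Ebf2 was at 39.2 CPM (34.9 to 43.9) in Ctrl, 72.3 (65.7 to 79.5) in KD and 40.8 (36.1 to 46.0) in Q153R. Only the KD interval stood apart. KD was 1.85 times Ctrl (1.59 to 2.15) and 1.51 times within clusters (1.31 to 1.76). Ebf2 was the 1 member of 4 past 1.5-fold, against 0.659% of 8044 genes in either direction, and ranked 4 by ratio. Its ratio was below 1.5 with at most 3 UMIs counted per nucleus (1.44, 1.16 to 1.80; within clusters 1.20, 0.970 to 1.49) and with at least 1000 genes required per nucleus (1.40, 1.20 to 1.63). Q153R was 1.04 times Ctrl (0.879 to 1.23), and 0 of 4 members were past 1.5-fold there, against 0.635% of genes. Q153R was 0.564 times KD (0.483 to 0.659), within clusters 0.727 (0.623 to 0.849), the 1 member of 4 past 1.5-fold against 0.93% of genes. At equal depth 3.51% (2.56 to 4.68), 5.49% (4.13 to 7.14) and 3.97% (2.96 to 5.20) of nuclei held Ebf2, intervals that overlap.

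The Ebf2 difference lay mainly in cluster 9. That cluster was 3.35% of Ctrl, 4.32% of KD and 3.42% of Q153R neurons (45, 43 and 46 nuclei) and held 168, 319 and 176 Ebf2 UMIs, or 501 CPM (428 to 583), 913 (816 to 1019) and 611 CPM (524 to 708). KD was 1.82 times Ctrl there (1.51 to 2.21). A Ctrl nucleus of cluster 9 held a median of 2 Ebf2 UMIs (0 to 16), a KD nucleus 6 (0 to 25) and a Q153R nucleus 2 (0 to 16), so the 3 pools overlapped. Median depths there were 6760, 8210 and 5507 UMIs, so raw counts per nucleus are not at equal depth. Per 10000 UMIs the Ebf2 medians were 3.65, 8.81 and 4.25. Nuclei with 5 or more UMIs were 16, 26 and 15, and without the highest nucleus of each pool the levels were 463, 863 and 583 CPM. The share with any Ebf2 at equal depth differed less, at 53.5% (37.7 to 68.8), 65.1% (49.1 to 79.0) and 56.5% (41.1 to 71.1). Ebf1 in the same nuclei was at 1274, 1299 and 1090 CPM, with KD 1.02 times Ctrl (0.892 to 1.17). Bnc2, which leads the cluster, was at 14.9, 26.3 and 16.8 CPM over the Sim1 clusters of the 3 pools, in the order of Ebf2. These Bnc2 levels came from 25, 22 and 26 nuclei with a UMI. The transcript 4930438E09Rik, antisense within Ebf2, had 42, 72 and 44 UMIs over the same clusters. Its reads may not be separable from those of Ebf2, so it is not separate evidence.

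**Figure D4:**
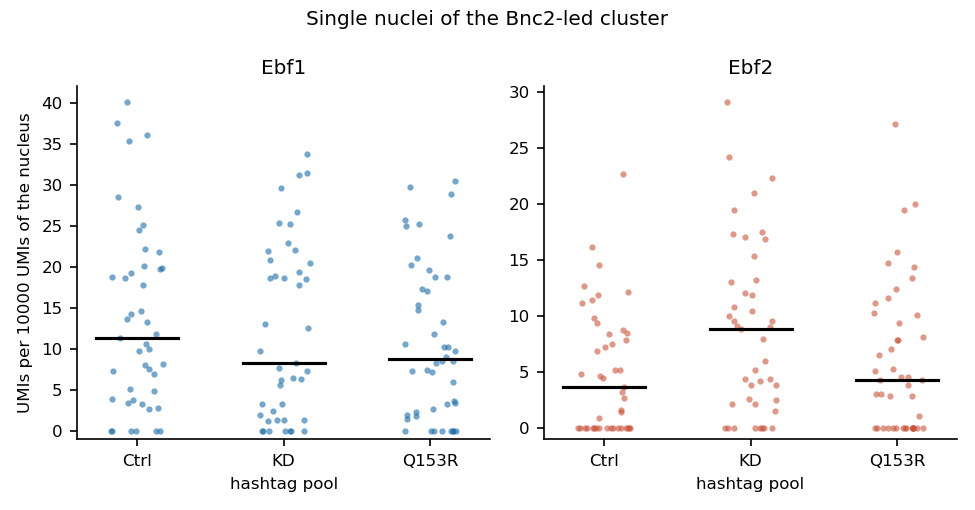
Ebf1 and Ebf2 UMIs per 10000 UMIs in each nucleus of cluster 9 by pool, with the median as a line. Ebf2 medians are 3.65 in Ctrl, 8.81 in KD and 4.25 in Q153R, and the nuclei of the 3 pools overlap.

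Outside cluster 9 the KD ratio of Ebf2 was 1.15 (0.887 to 1.49), which includes 1. Cluster 13 also held more Ebf2 in KD, at 94.6, 288 and 133 CPM in the 3 pools from 7, 11 and 6 positive nuclei, although it was a smaller share of KD (2.81%) and Q153R (1.41%) than of Ctrl neurons (4.32%). In cluster 17 the levels were 129, 112 and 136 CPM. Clusters 8 and 11 ran the other way, with 25, 2 and 5 and with 20, 5 and 8 UMIs. In each, 1 Ctrl nucleus held much of the Ctrl count, 22 of the 25 UMIs in cluster 8 and 10 of the 20 in cluster 11, where the Ctrl level fell from 89.0 to 45.3 CPM without it. Of the 5 clusters with 20 or more Ebf2 UMIs in Ctrl and KD together, 2 were higher in KD and 3 lower, 2 of each beyond their intervals, and the 2 lower ones are these clusters 8 and 11.

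Ebf3 was at 90.6 CPM (84.0 to 97.7) in Ctrl, 121 (112 to 130) in KD and 111 (104 to 120) in Q153R, with both altered pools above Ctrl. The ratios were 1.33 (1.20 to 1.48) in KD and 1.23 (1.11 to 1.37) in Q153R, and 1.24 (1.12 to 1.38) and 1.26 (1.14 to 1.40) within clusters. Of 10 clusters with at least 20 UMIs in both pools together, 10 were higher in KD than in Ctrl, 4 of them beyond the interval. For Q153R it was 7 of 9, with 3 intervals above 1 and 1 below. With the called tag required to hold 80% of the tag signal, which left 313, 173 and 214 nuclei, the ratios were 1.18 in KD and 0.964 in Q153R. At equal depth 11.9% (10.1 to 13.8), 15.7% (13.5 to 18.2) and 14.6% (12.7 to 16.7) of nuclei held it. The strongest Ebf3 clusters differed little: cluster 20 was at 578, 609 and 654 CPM and cluster 11 at 601, 673 and 683, with all intervals overlapping. Some clusters with a lower Ebf3 level differed more, but cluster 18 (Reln), at 239, 269 and 200 CPM, had intervals that all overlap. In cluster 5 (Crh) Ebf3 was at 97.2, 97.3 and 224 CPM, so Q153R was 2.31 times Ctrl (1.68 to 3.20). In cluster 6 it was at 28.8, 86.6 and 96.0 CPM, and in cluster 13 at 168, 305 and 378.

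Ebf1 was at 238 CPM (227 to 249) in Ctrl, 274 (261 to 287) in KD and 279 (266 to 292) in Q153R. The KD ratio of 1.15 (1.08 to 1.23) was 1.04 (0.975 to 1.12) within clusters, where it includes 1. The Q153R ratio of 1.17 (1.10 to 1.25) was 1.18 (1.10 to 1.26) within clusters. Clusters disagreed in direction. Ebf1 in cluster 8 (Tcf7l2) was at 169, 195 and 424 CPM, Q153R being 2.51 times Ctrl (1.92 to 3.30), and in cluster 17 at 714, 944 and 1131. In cluster 5 it was at 45.1, 67.0 and 126 CPM, Q153R being 2.79 times Ctrl (1.78 to 4.52), alongside Ebf3. In cluster 2 it was lower in KD, at 1037, 743 and 1005 CPM (0.716, 0.623 to 0.823). At equal depth 14.8%, 17.5% and 17.5% of nuclei held Ebf1. Ebf4 was at 23.8, 25.2 and 23.7 CPM, with ratios of 1.06 (0.846 to 1.32) and 0.997 (0.799 to 1.24).

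**Figure D5:**
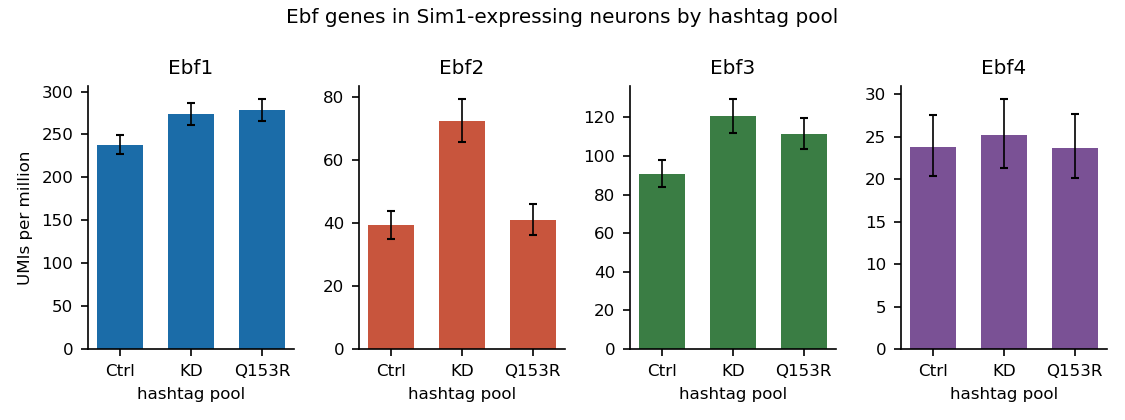
Level of each Ebf gene (CPM, axis from 0) in the pools labelled Ctrl, KD and Q153R over the Sim1-expressing clusters; bars are summed levels of 1 pool each and lines 95% Poisson intervals. Ebf2 stands at 72.3 CPM in KD against 39.2 in Ctrl, and Ebf4 lies between 23.7 and 25.2 CPM.

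Over the same pools, the cofactor, helix-loop-helix, developing-neuron and target lists had 0 genes past 1.5-fold in KD or Q153R against Ctrl. Of 19 measured PVH transcription factors, 3 were higher and 1 lower in KD, against 0.659% of all genes in either direction. This list was chosen with earlier results of these data known and holds Otp and class markers. Its counts are no test of enrichment. The higher genes were Otp, the altered gene (1.57), Bnc2 (1.77) and Etv5 (1.53), and the lower was Nfia (0.571). In Q153R, 1 was higher, again Otp (2.10), and 2 lower, Nfia (0.608) and Nfib (0.599), against 0.635% of all genes. The list medians in KD were -0.02 for the 8 measured cofactors and 0.06 for the PVH factors on the log2 scale, beside -0.04 over all genes.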

How the data were processed

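The 4 members, the marker classes and the gene lists were chosen with earlier results of these data known. The authors deposited UMI counts per gene and barcode of 1 library. Cell Ranger 6.0.0 and the build mm10 are named in the submitters' processing notes, and 7.0.0 per the file headers. Annotation, intron and strand settings and cell calling: not given in the sources used here. Of 6173 barcodes, 6157 had at least 500 genes and under 5% mitochondrial UMIs. Removed were 1124 with more than 1 hashtag, which mark doublets across pools (minimum 105 UMIs for Ctrl, 61 for KD and 37 for Q153R), and 583 with at least 18.0% of such nuclei among their 50 nearest neighbours. The 129 nuclei without a tag were kept outside the pool comparison, and 188 nuclei in unnamed clusters were not used further.

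Clusters came from scanpy 1.11.5, igraph 0.11.9 and scikit-learn 1.9.0 in python 3.11.15: 2000 variable genes, 30 principal components, 15 neighbours and a Leiden resolution of 1.5. The resolution and the doublet rule were chosen after seeing the data. The classes needed 2 UMIs for Bnc2 and for Aox3 with Satb1, 3 for Crh, Trh and GABA, 5 and 5 per 10000 for Sst, and 20 per 10000 for Oxt and Avp. Intervals are 95%: exact Poisson for levels, Clopper-Pearson for shares, exact conditional for ratios (scipy 1.17.1) and Mantel-Haenszel within clusters. Those over all thinning draws used rounded expected numbers in place of observed ones. The code was tested on simulated data. Genes needed 200 UMIs to be ranked. Named were the members, the 5 genes closest to each by cluster correlation, the 5 with the highest ratio, extremes of the lists, and Mc4r, Otp and Sim1. The value of 1 listed gene is not reported here. Alternatives varied class minimums, doublet removal, filters, thinning, tag calls and clustering. Added after seeing the data were resolution 1.0, leaving out clusters of 500 CPM or more of Ebf2, leaving out the top nucleus of each pool, and expected numbers over all thinning draws.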

Additional observations from a re-analysis of the deposited data

How the results depend on the processing

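No paired analysis was possible because each genotype is 1 pool in 1 library, and no replicate could be left out. With class minimums at 0.5 times, Ebf1 in the Bnc2 class was 3.10 times the other neurons, Ebf3 2.77 in the Aox3/Satb1 and 7.25 in the Avp class, and Ebf1 in the Aox3/Satb1 class turned to 1.01. At 2 times, Ebf3 in the Aox3/Satb1 class was 5.23 and Ebf1 in the Trh class turned to 0.889. Counting at most 3 UMIs of a member per nucleus gave Ebf3 3.41 in the Aox3/Satb1 and 6.64 in the Avp class, and, for pools against Ctrl, Ebf1 1.31 in Q153R and Ebf2 1.44 in KD. In nuclei with Xist alone, Ebf1 in the Bnc2 class was 4.44, and Ebf1 and Ebf2 in Q153R were 1.09 and 1.28. Without doublet removal, Ebf1 and Ebf2 in the Bnc2 class were 2.12 and 7.74, Ebf3 2.70 and 5.245 in the Aox3/Satb1 and Avp classes, detection of Ebf1 and Ebf2 17.8% and 4.77%, and Ebf2 in KD 1.58. With near neighbours of doublets kept, 16.1% of neurons held Ebf1. Thinning to 0.5 times the depth gave shares of 10.9%, 2.41%, 7.94% and 2.34% for Ebf1 to Ebf4, and an odds ratio of 0.266 for Ebf1 with Ebf3. Thinning to 2 times gave 19.9%, 5.94%, 16.2% and 9.08%, so shares of nuclei are limited by depth. The odds ratio of Ebf1 with Ebf2 was 18.8 at 2 or more unthinned UMIs, and that of Ebf1 with Ebf3 was 0.335 at resolution 1.0. The latter alternative also drew the thinning anew, and the main setting gave 0.425 over all draws. With tag calls at 80%, Ebf3 was 1.18 in KD and turned to 0.964 in Q153R, and Ebf4 was 1.498 in Q153R. Over all neurons, Ebf1 was 1.25 in KD and 1.35 in Q153R, and Ebf3 1.41 in Q153R. Without clusters of 500 CPM or more of Ebf2, Ebf1 was 1.27 and Ebf2 0.824 in Q153R, and Ebf2 1.15 in KD. With at least 1000 genes, Ebf2 in KD was 1.40. The cause was not tested, except that leaving out nuclei or thinning leaves fewer UMIs. Of 88 alternative values of the 8 pool ratios, 73 moved by less than their interval, 14 moved by more and 1 turned direction, and in 6 an interval that had excluded 1 came to include it.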
